A study of Mus musculus with 18 samples.

Results

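Interferon response genes, which cells switch on when interferon binds its receptor, were followed in LT-HSCs, the long-term stem cells of mouse bone marrow from which all blood lineages can be regrown. The members were listed by symbol and comprise 43 interferon-induced genes, with the genes of MHC and of the proteasome left aside. Of these, 42 had a row among the 21003 gene symbols of the deposited count table, and Isg15 was not analysed here. Kept were the 37 members with at least 10 counts in at least 3 libraries. The 5 that fell short were Ifit3, Mx1, Zbp1, Oas2 and Oasl1, with 17 to 78 counts each over all libraries.

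The series holds 18 libraries in 3 groups of 6, each made from 100 sorted LT-HSCs. The pH 6.9 group was kept for 48 h in medium adjusted to pH 6.9, the pH 7.4 group for 48 h in medium at pH 7.4, and the fresh group, labelled pH 7.4, was not cultured. Both cultures used IMDM with 10% FBS and cytokines that included SCF and G-CSF, at 50 ng/ml, at 37 °C with 5% CO2 and 3% O2. The mice were 8 to 12 weeks old and are named B6.SJL in one label and c57 B6 WT in another, with no allele or agent beyond these. The design text names 6 individual mice, and the replicate number was read as the mouse. Because 100 cells were pooled in each library, fewer cells expressing a gene and less of its RNA per cell cannot be told apart.

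Library totals ran from 1640817 to 7508120 counts, apart from fresh replicate 1 with 6311. Detected genes numbered 8925 in pH 6.9 replicate 3, 9408 in fresh replicate 4 and 3035 in fresh replicate 1, while the remaining 15 libraries had 11225 to 12792. In fresh replicate 1 a single count was worth 80.2 CPM (counts per 1e+06 of the scaled library total), and 31 of the 37 members were at 0 there. Of the 37, 10 were at 0 in pH 6.9 replicate 3 and 7 in fresh replicate 4, against 0 to 2 in any other library. In every group the first sequencing index of mice 1, 3 and 5 differs from that of mice 2, 4 and 6. Each comparison is therefore given over all 18 libraries and then, over the 15, separately for odd-numbered mice and for even-numbered mice. Those sets hold 2 libraries of odd-numbered mice at pH 6.9, 3 at pH 7.4 and 2 fresh, and 3, 3 and 2 of even-numbered mice. Within a set the first index differs along with the group, and their effects cannot be told apart. The 12 genes that mark LT-HSCs were all detected in each group.

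Type I interferons bind a receptor whose kinases activate STAT2 among other factors, and a complex that holds STAT2 and IRF9 binds a DNA motif called the interferon-stimulated response element (ISRE). Interferon gamma acts through another receptor and on a motif called the gamma-activated site (GAS). In haematopoietic stem cells interferon is known to draw dormant cells into the cell cycle, and stem cells are known to express part of this programme without infection.

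Promoter windows from RefSeq (GRCm38.p6, 250 bases before to 50 after a gene's start) show which members carry these motifs near their start, and 31 of the 37 members had a window. The ISRE core was searched as GAAANNGAAA and the GAS core as TTCNNNGAA, on both strands, where the GAS core reads the same on either strand. The ISRE core was in a window of 15 of the 31 members (48.4%), against 3.99% of 27025 genes and 3.44% of 32851 windows. The GAS core was in 11 of the 31 (35.5%), against 9.55% of genes and 8.3% of windows. Both motifs were in Bst2, Eif2ak2, Gbp7, Ifitm3, Igtp and Oas1a, and in Bst2 and Ifitm3 a GAS core overlapped an ISRE core. A match describes letters and not a bound site. Promoters to show were chosen among members named below with an ISRE core before the start, called members first and then by smallest p. Trim30a and Gbp2 were called by edgeR in a comparison below, and Ifitm2 and Irgm1 in none. The 250 bases before the start are shown for these 4 members, with the ISRE core in capitals: Trim30a at chr7:104465194-104465443 on the minus strand, Gbp2 at chr3:142620413-142620662 on the plus strand, Ifitm2 at chr7:140955962-140956211 on the minus strand and Irgm1 at chr11:48871421-48871670 on the minus strand. Each is written 5′ to 3′ on the strand of its gene, and in Irgm1 the capitals join 2 overlapping cores.
Trim30a: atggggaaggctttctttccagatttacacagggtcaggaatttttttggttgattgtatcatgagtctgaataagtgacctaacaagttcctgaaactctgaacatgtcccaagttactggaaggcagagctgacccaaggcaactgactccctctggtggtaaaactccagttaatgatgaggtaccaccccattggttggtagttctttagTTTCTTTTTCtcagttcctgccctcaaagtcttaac
Gbp2: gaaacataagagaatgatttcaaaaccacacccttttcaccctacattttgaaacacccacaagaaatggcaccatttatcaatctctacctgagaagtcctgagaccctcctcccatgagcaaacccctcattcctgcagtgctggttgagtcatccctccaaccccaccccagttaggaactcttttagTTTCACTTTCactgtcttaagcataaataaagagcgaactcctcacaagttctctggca
Ifitm2: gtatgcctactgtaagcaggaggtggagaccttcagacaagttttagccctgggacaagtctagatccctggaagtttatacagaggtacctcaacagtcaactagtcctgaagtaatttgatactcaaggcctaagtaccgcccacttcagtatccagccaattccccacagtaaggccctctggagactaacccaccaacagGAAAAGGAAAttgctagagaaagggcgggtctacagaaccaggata
Irgm1: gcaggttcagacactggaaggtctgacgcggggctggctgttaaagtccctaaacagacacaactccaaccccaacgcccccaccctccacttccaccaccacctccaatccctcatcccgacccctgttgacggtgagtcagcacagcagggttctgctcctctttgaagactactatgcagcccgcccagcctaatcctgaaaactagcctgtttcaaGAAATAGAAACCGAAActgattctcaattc
The core ends 27 bases before the RefSeq start in Trim30a, 50 in Gbp2, 37 in Ifitm2 and 15 in Irgm1. The core of Ifih1 lies 32 to 41 bases after its RefSeq start. Gene coordinates given below are from GENCODE, whose starts can differ. The GENCODE start is 142620602 for Gbp2 and 48871683 for Irgm1, and the core of each lies after it.

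**Figure D1:**
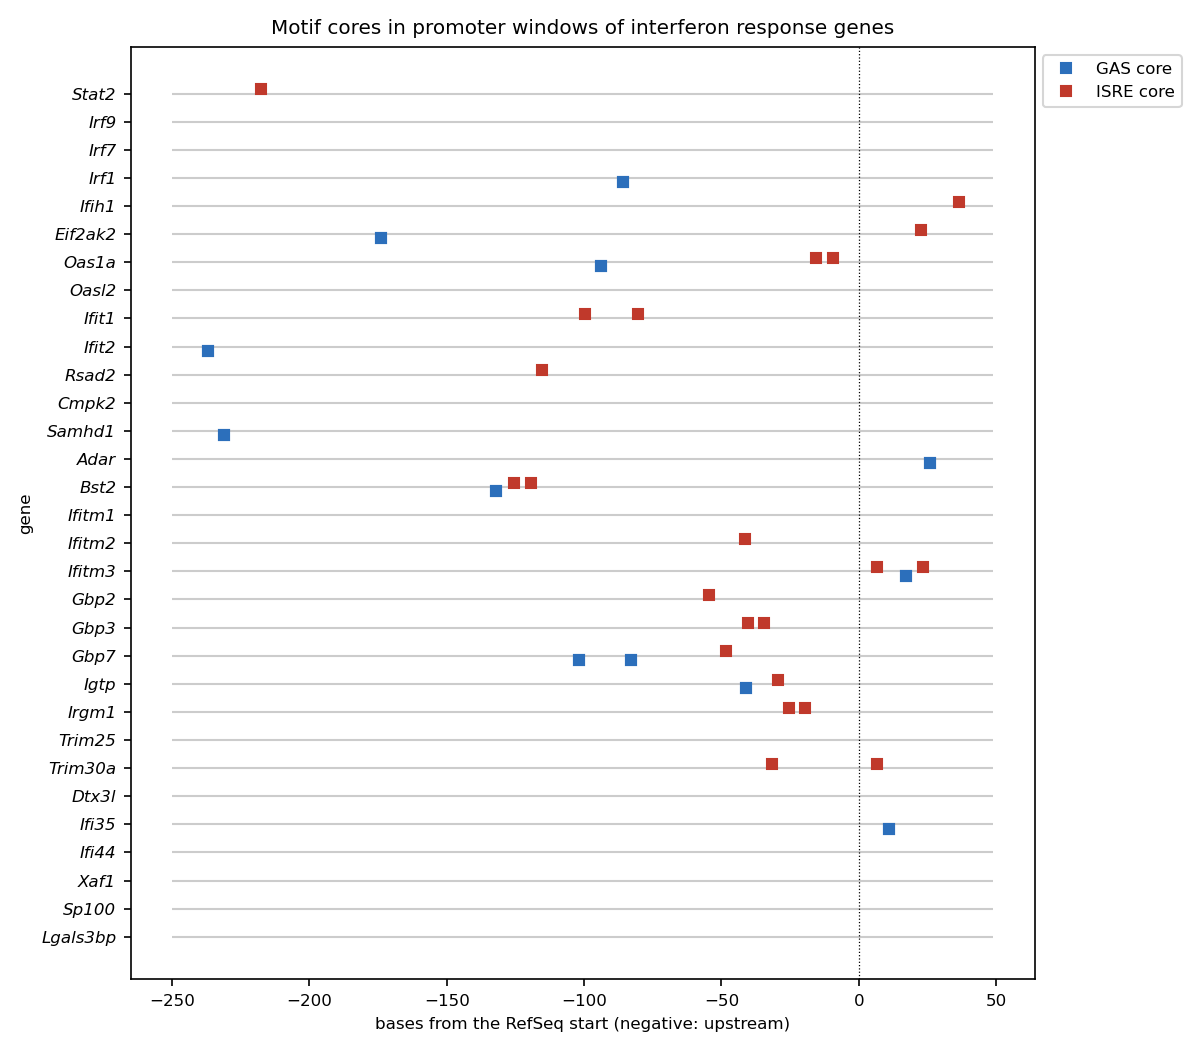
Positions of ISRE cores (red) and GAS cores (blue) in the promoter windows of the 31 interferon response genes with a RefSeq window, with the distance from the start in bases on the x axis and 1 row per gene. Among the 15 genes with an ISRE core, Trim30a, Gbp2, Ifitm2 and Irgm1 have one within 60 bases before the start. So do Oas1a, Gbp3, Gbp7 and Igtp.

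Over all 18 libraries no interferon response gene passed the test between any pair of groups. Between pH 6.9 and pH 7.4, edgeR's quasi-likelihood test called 0 of 35 members and 0% of 10104 genes at an adjusted p under 0.05 (Ifit1 and Irf7 were too low to be tested in this fit). An unadjusted p under 0.05 was reached by 1 member (2.86%), against 2.51% of genes. DESeq2 and limma-voom also called 0 members, against 0.0396% and 0% of genes. The fold change of pH 6.9 over pH 7.4 was positive in 25 of the 35 members, with a median of 0.33 on the log2 scale, against 49% of all genes and a median of -0.01. Between pH 7.4 and fresh cells 0 of 35 members and 0% of genes were called, with an unadjusted p under 0.05 in 2 members (5.71%) and 3.77% of genes. There 17 members were positive with a median of -0.01. Between pH 6.9 and fresh cells 0 of 35 members and again 0% of genes were called, with an unadjusted p under 0.05 in 1 member (2.86%) and 2.27% of genes, and 22 members were positive with a median of 0.14. DESeq2 and limma-voom called 0 members and 0% of genes in these comparisons too. The comparisons share libraries, and the p-values measure the spread between libraries of 6 mice a group.

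The members with the smallest p in these comparisons were Gbp3, Ifi27, Bst2, Ifi44 and Trim30a. Gbp3, a guanylate-binding protein of interferon gamma responses, ran from 6.88 to 64.9 CPM with a median of 13.5 at pH 6.9, from 3.17 to 13.6 with a median of 8.54 at pH 7.4, and from 0 to 51.2 with a median of 20.0 in fresh cells (n = 6 each). The groups overlapped, and the highest values at pH 6.9 and in fresh cells were those of pH 6.9 replicate 3 and fresh replicate 4. Its log2 fold change was 1.20 ± 0.53 (SE) for pH 6.9 over pH 7.4 (edgeR adjusted p = 0.997) and 0.39 over the 15 libraries, and -1.54 ± 0.54 for pH 7.4 over fresh cells (adjusted p = 0.879). Ifi27, an interferon-induced protein of the inner mitochondrial membrane, ran from 32.3 to 118 CPM with a median of 68.2 at pH 6.9 and from 29.5 to 74.8 with a median of 40.0 at pH 7.4, with overlap (0.71 ± 0.38, edgeR adjusted p = 0.997). Bst2, tetherin, which holds budding virus on the cell surface, ran from 33.4 to 47.2 CPM with a median of 36.947 at pH 7.4 and from 35.8 to 254 with a median of 65.2 in fresh cells, with overlap. Its log2 fold change was -1.25 ± 0.52 (edgeR adjusted p = 0.879), and -0.48 without fresh replicate 4. Ifi44, an interferon-induced protein of the cytoplasm, ran from 0 to 6.54 CPM with a median of 4.81 at pH 6.9 and from 0 to 74.2 with a median of 4.28 in fresh cells. The fold of -2.07 ± 0.87 on the log2 scale (edgeR adjusted p = 0.99995) became 0.13 without fresh replicate 4, the library with 74.2 CPM. Trim30a ran from 22.8 to 64.5 CPM with a median of 49.7 at pH 6.9 and from 0 to 38.2 with a median of 26.4 in fresh cells, with overlap (0.67 ± 0.36, edgeR adjusted p = 0.99995).

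**Figure D2:**
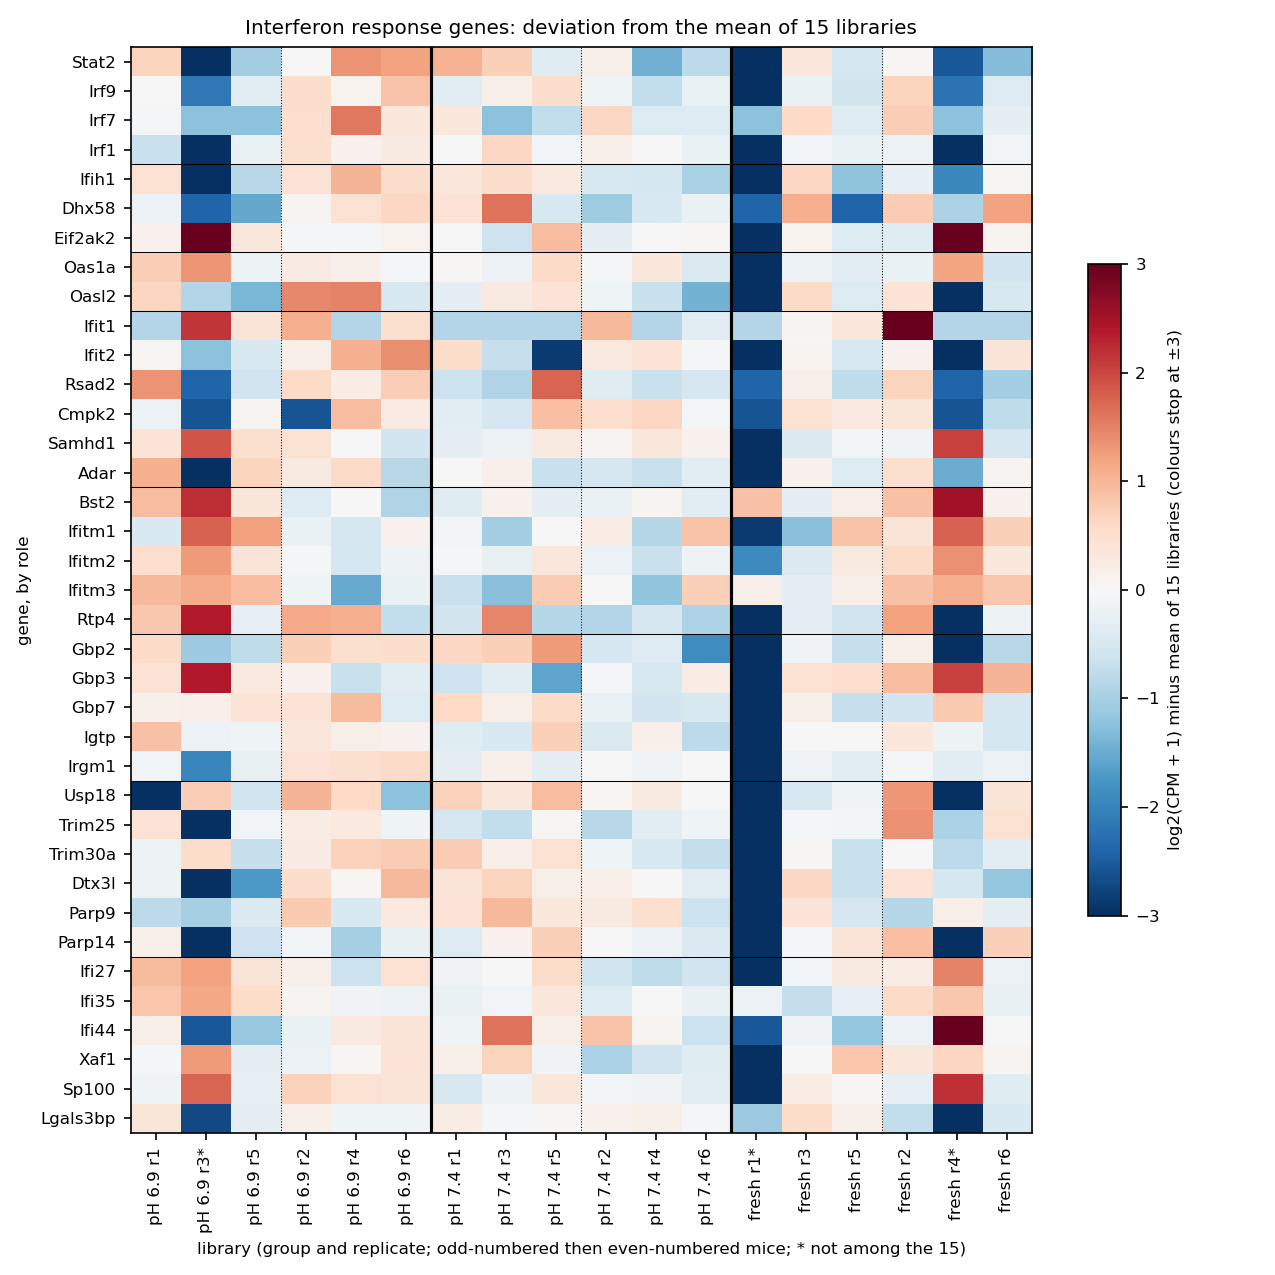
Each of the 37 kept interferon response genes (rows, by role) in each of the 18 libraries (columns, by group and then odd-numbered and even-numbered mice), coloured by log2(CPM + 1) minus the mean of the 15 libraries, with colours stopping at ±3. Fresh replicate 1, pH 6.9 replicate 3 and fresh replicate 4, marked with an asterisk, stand apart from the other 15 libraries, and 31 members are at 0 in fresh replicate 1.

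Within the sets of mice, the median fold change of pH 6.9 over pH 7.4 was below 0 in odd-numbered mice and above 0 in even-numbered mice, and few members passed. In odd-numbered mice edgeR called 0 of 37 members between pH 6.9 and pH 7.4, against 10.6% of 11226 genes, and 9 members (24.3%) had an unadjusted p under 0.05, against 26.3% of genes. DESeq2 and limma-voom called 1 member each there (2.7%), against 14.9% of genes by DESeq2 and 10.1% by limma-voom. Positive fold changes were seen in 17 of 37 members with a median of -0.12 on the log2 scale, against 46.1% of genes and -0.08. In even-numbered mice 1 of 37 members was called, Trim30a, against 6.24% of genes, and 11 members (29.7%) had an unadjusted p under 0.05, against 20.3% of genes. DESeq2 called 5 members (13.5%), against 9.51% of genes, and limma-voom 7 (18.9%), against 14.9% of genes. Positive fold changes were seen in 28 of 37 members with a median of 0.54, against 54.9% of genes and 0.07. The difference between the sets of mice was called for 3 members, Trim30a, Gbp2 and Ifih1, all more positive in even-numbered mice, against 17.2% of genes. DESeq2 called 4 members for the difference (10.8%), against 20.6% of genes, and limma-voom 8 (21.6%), against 21.4%. By edgeR the shares of members called were below those of all genes in these 3 tests, while in even-numbered mice the shares by DESeq2 and limma-voom were above. Signs of the fold change were negative for odd-numbered and positive for even-numbered mice in 17 of the 37 members (45.9%, against 35.7% of genes), the opposite in 6 (16.2%, against 3024 of 11226 genes), positive in both for 11 (29.7%, against 19.2%) and negative in both for 3 (8.11%, against 18% of genes). The medians do not turn on Ifit1, whose fitted fold in odd-numbered mice rests on 0 counts in all 3 libraries at pH 7.4 and gives no bound.

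Some members had libraries at pH 6.9 and pH 7.4 that did not overlap. In odd-numbered mice 7 members had every library at pH 6.9 above every library at pH 7.4 (18.9%, against 18.9% of genes): Adar, Bst2, Gbp3, Ifi35, Ifitm2, Ifitm3 and Samhd1. Another 6 had every library at pH 6.9 below (16.2%, against 18.7% of genes): Dtx3l, Gbp2, Irf1, Parp9, Trim30a and Usp18. In even-numbered mice 10 had every library at pH 6.9 above (27%, against 15.2% of genes): Dhx58, Gbp2, Ifih1, Irf9, Irgm1, Rsad2, Sp100, Trim25, Trim30a and Xaf1. None of the 37 had every library below, against 15.9% of genes. Of the 10, 9 had a promoter window and 5 of these held an ISRE core. Of the 7 above in odd-numbered mice 4 held one, and of the 4 with a window among the 6 below 2 did, beside 15 of the 31 members in all. Library by library, members above their own median of the 15 libraries numbered 25, 23 and 22 of 37 in even-numbered mice at pH 6.9, against 14, 11 and 6 at pH 7.4 and 23 and 13 in fresh cells. In odd-numbered mice they numbered 22 and 13 at pH 6.9, against 16, 20 and 21 at pH 7.4 and 18 and 12 in fresh cells.

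**Figure D3:**
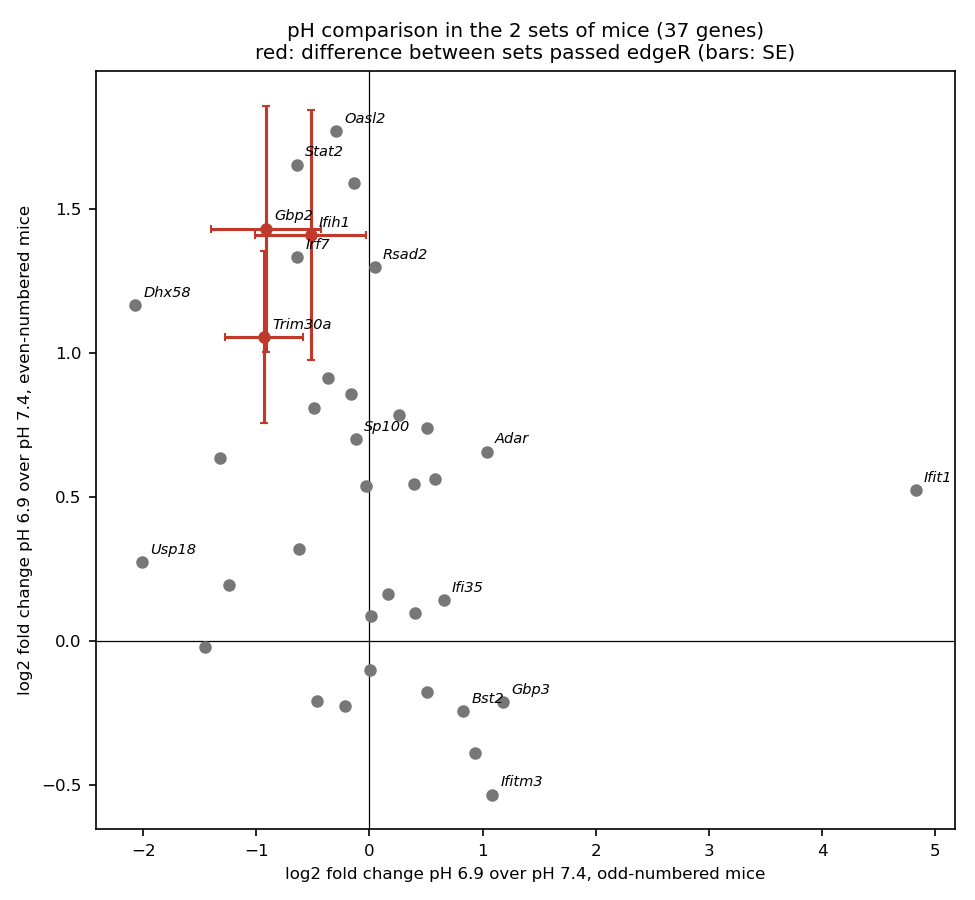
Log2 fold change of pH 6.9 over pH 7.4 in odd-numbered mice (x axis) against that in even-numbered mice (y axis) for the 37 kept interferon response genes, with bars for the SE of the 3 genes whose difference between the sets passed edgeR (red). Trim30a, Gbp2 and Ifih1 lie left of 0 and above 0, as do 17 of the 37, and the far right point is Ifit1, whose counts at pH 7.4 are 0 in odd-numbered mice.

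Markers of granulocyte precursors, Nkg7 among those of T and NK cells, and Ccr2 and Csf1r among those of monocytes moved with the even-numbered comparison. Sums for plasmacytoid dendritic cells, monocytes and macrophages, B cells, megakaryocytes and erythroid cells overlapped there between the pH groups. The summed level of 9 markers of granulocyte precursors was 49.9, 47.3 and 33.9 CPM in even-numbered mice at pH 6.9, against 1905, 1754 and 5106 at pH 7.4, and in fresh even-numbered mice it was 117 and 271. For odd-numbered mice the sums were 166 and 166 CPM at pH 6.9, against 44.8, 74.6 and 53.5 at pH 7.4 and 76.3 and 5517 in fresh cells. Mpo and Prtn3, proteins of neutrophil granules, carried most of the sum at pH 7.4 in even-numbered mice. Mpo had 1.16, 9.88 and 6.54 CPM there at pH 6.9, against 1079.9, 1019 and 3130 at pH 7.4. Prtn3 had 33.6, 31.1 and 21.5 CPM, against 389.7, 399 and 767. S100a8, S100a9, Ngp and Camp, markers of later neutrophils, were at or near 0 in both pH groups, at no more than 0.190 CPM. The 12 LT-HSC markers summed to 1354, 1789 and 1615 CPM in even-numbered mice at pH 6.9, against 604, 765 and 490 at pH 7.4, and to 1547 and 1188 in odd-numbered mice at pH 6.9, against 1040, 1567 and 1675. Ly6a, an interferon-induced gene, held much of that sum. The other 11 summed to 567, 724 and 697 CPM in even-numbered mice at pH 6.9, against 434, 429 and 380.3 at pH 7.4, still without overlap. The part of these cells in the members' values was not tested. Plasmacytoid dendritic cells, a main source of type I interferon, had 4 of 7 markers detected at pH 6.9, 5 at pH 7.4 and 5 in fresh cells, with sums of 66.6 to 130.4, 72.5 to 107 and 84.2 to 117 CPM over the 15 libraries. Tcf4, at 33.2 to 61.5 CPM, and Bst2, itself a member, made up most of these sums, while Siglech and Klk1 were at 0 in all 18 libraries. Monocyte and macrophage markers summed to 164 to 240 CPM at pH 6.9, 121 to 274 at pH 7.4 and 151 to 206 in fresh cells over the 15 libraries. B cell markers summed to 29.0 to 53.1, 20.9 to 81.2 and 27.9 to 44.0 CPM in the same order of groups. T and NK cell markers, mostly Nkg7, summed to 17.98, 5.99 and 15.01 CPM in even-numbered mice at pH 6.9, against 70.6, 52.7 and 108 at pH 7.4, without overlap. The fall was carried by Nkg7, with 9.86, 4.79 and 10.2 CPM against 70.3, 52.3 and 106. Klrb1c had 7.54, 0 and 4.62 CPM there at pH 6.9, against 0.258, 0 and 1.59 at pH 7.4. Cd3d had 0.580, 1.20 and 0.192 CPM, against 0, 0 and 0.159, and Cd3e and Ncr1 were at or near 0. In odd-numbered mice the sums were 24.1 and 64.3 CPM at pH 6.9, against 21.5, 22.1 and 9.50 at pH 7.4. Megakaryocyte markers summed to 56.6 to 403 CPM at pH 6.9, 49.7 to 976 at pH 7.4 and 151 to 593 in fresh cells, and erythroid markers to 8.08 to 232, 11.2 to 118 and 23.5 to 515 CPM.

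The transcription factors of the response had positive folds in even-numbered and negative folds in odd-numbered mice, and none passed the test. They are Stat2 and Irf9, whose products act together on the ISRE, Irf7, which amplifies the making of type I interferon, and Irf1, a factor induced by interferon gamma. Irf1 had 77.7, 60.5 and 67.0 CPM in even-numbered mice at pH 6.9, against 61.6, 56.0 and 47.7 at pH 7.4, with overlap. In odd-numbered mice it had 34.5 and 47.6 CPM at pH 6.9, against 54.4, 85.1 and 51.9 at pH 7.4, with no overlap. Irf9 had 44.7, 32.6 and 56.2 CPM in even-numbered mice at pH 6.9, all above the 27.6, 17.9 and 26.3 at pH 7.4. Stat2 had 11.6, 30.8 and 28.1 CPM there at pH 6.9, against 13.1, 3.62 and 6.34 at pH 7.4, with overlap, and Irf7 reached at most 5.99 CPM in any library. In fresh even-numbered libraries Irf9 had 49.1 and 23.2 CPM, Stat2 11.8 and 4.08, and Irf1 48.8 and 51.8. Between pH 6.9 and pH 7.4 the log2 fold changes of the 4 ran from 0.32 to 1.66 in even-numbered and from -0.64 to -0.36 in odd-numbered mice. The difference between the sets was positive for all 4, with an unadjusted p under 0.05 for 3 and a smallest edgeR adjusted p of 0.0899.

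Among the sensors of foreign nucleic acid, Ifih1 differed between the sets of mice. Ifih1 (chromosome 2, 62595798 to 62646255, minus strand) encodes MDA5, which detects long double-stranded RNA. It had 31.3, 47.6 and 33.3 CPM in even-numbered mice at pH 6.9, against 15.97, 15.6 and 11.1 at pH 7.4, with no overlap, while the fresh libraries had 19.1 and 23.6. In odd-numbered mice it had 31.5 and 12.3 CPM at pH 6.9, against 29.1, 33.2 and 28.1 at pH 7.4, and 35.6 and 9.26 in fresh cells. The log2 fold changes were 1.41 ± 0.43 in even-numbered mice (edgeR adjusted p = 0.0584) and -0.52 ± 0.49 in odd-numbered mice. Their difference of 1.93 ± 0.66 had an edgeR adjusted p of 0.0498, which passed the threshold in 6 of 21 alternatives and ran from 0.00542 to 0.310 over them. With the mouse number as a block it was 0.0608. Without pH 6.9 replicate 5, one of the 2 odd-numbered libraries, the adjusted p was 0.246. Dhx58, the related sensor LGP2, had 4.64, 6.29 and 7.12 CPM in even-numbered mice at pH 6.9, against 1.55, 2.85 and 3.65 at pH 7.4 (log2 fold change 1.17 ± 0.97, edgeR adjusted p = 0.544). Fresh even-numbered libraries had 7.98 and 11.3 CPM of Dhx58, above every value at pH 6.9. Eif2ak2, the kinase PKR that halts translation on double-stranded RNA, stayed between 14.4 and 44.0 CPM in the 15 libraries, with log2 fold changes of 0.01 ± 0.42 in odd-numbered mice and 0.09 ± 0.37 in even-numbered mice.

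The guanylate-binding proteins and immunity-related GTPases, which attack vacuoles of intracellular microbes, were led by Gbp2. Gbp2 (chromosome 3, 142620602 to 142638008, plus strand) had 45.8, 38.6 and 40.0 CPM in even-numbered mice at pH 6.9, against 19.1, 20.7 and 6.82 at pH 7.4 and 31.3 and 15.1 in fresh cells. In odd-numbered mice it had 41.3 and 15.9 CPM at pH 6.9, against 42.9, 45.6 and 68.1 at pH 7.4 and 25.6 and 16.7 in fresh cells. So the libraries at pH 6.9 lay above those at pH 7.4 in even-numbered and below them in odd-numbered mice, without overlap in either set. The log2 fold change was 1.43 ± 0.43 in even-numbered mice (edgeR adjusted p = 0.0515, and 0.0400 with the mouse number as a block, but not passing in 13 of 21 alternatives) and -0.92 ± 0.48 in odd-numbered mice (0.241). Their difference of 2.35 ± 0.65 had an edgeR adjusted p of 0.0170, which ran from 0.000873 to 0.282 over the alternatives and was 0.112 without pH 6.9 replicate 5. Gbp2 shares 4.85% of its transcript sequence, in 31-base words, with Gbp2b or other genes. Irgm1, a GTPase that in mice also supports haematopoietic stem cells, had 131, 136 and 147 CPM in even-numbered mice at pH 6.9, against 98.1, 90.2 and 98.9 at pH 7.4 and 94.8 and 85.7 in fresh cells. All 3 libraries at pH 6.9 stood above the others of their set, with a log2 fold change over fresh cells of 0.65 ± 0.22 (edgeR adjusted p = 0.0629). Gbp3 had 16.04 and 14.3 CPM in odd-numbered mice at pH 6.9, against 7.15, 9.10 and 3.17 at pH 7.4 and 16.3 and 16.93 in fresh cells. Its log2 fold change was 1.18 ± 0.50 for pH 6.9 over pH 7.4 there (edgeR adjusted p = 0.136) and -1.32 ± 0.49 for pH 7.4 over fresh cells (0.340). For Gbp2 the fold of pH 7.4 over fresh cells in odd-numbered mice was 1.30 ± 0.48 (edgeR adjusted p = 0.341). Gbp7 and Igtp had log2 fold changes of 0.86 ± 0.34 and 0.54 ± 0.34 in even-numbered mice and -0.16 ± 0.38 and 0.40 ± 0.38 in odd-numbered mice, and none of these passed.

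Of the genes that act through ubiquitin, ISG15 or ADP-ribose, Trim30a rose at pH 6.9 in even-numbered mice. Trim30a (chromosome 7, 104409025 to 104465193, minus strand) is a tripartite-motif protein that in mice restrains signalling from Toll-like receptors. It had 44.1, 61.4 and 64.5 CPM in even-numbered mice at pH 6.9, against 34.0, 26.8 and 22.2 at pH 7.4 and 37.3 and 29.5 in fresh cells. In odd-numbered mice it had 33.3 and 22.8 CPM at pH 6.9, against 63.9, 43.0 and 51.5 at pH 7.4 and 38.2 and 23.3 in fresh cells. The libraries of the pH groups did not overlap in either set, and the order of the groups was opposite. In even-numbered mice the mean was 56.6 CPM at pH 6.9 (SD 10.97) and 27.7 CPM at pH 7.4 (SD 5.94), each over 3 libraries, a log2 fold change of 1.06 ± 0.30 (SE) with an edgeR adjusted p of 0.0402. That call was lost in 7 of 21 alternatives, with adjusted p from 0.00784 to 0.861 over all 21. With the mouse number as a block it was 0.0541, and without pH 7.4 replicates 2, 4 or 6 it was 0.0677, 0.116 and 0.206. Without pH 6.9 replicates 4 or 6 it was 0.103 and 0.170. In odd-numbered mice the log2 fold change was -0.93 ± 0.35 (edgeR adjusted p = 0.0910). The difference between the sets, 1.99 ± 0.46, had an edgeR adjusted p of 0.00540 and passed in 20 of 21 alternatives. The exception was the fit of all 18 libraries, with 0.215. Trim30a shares 11.9% of its 31-base words with other genes, mostly Trim30d, so counts could pass between them.

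**Figure D4:**
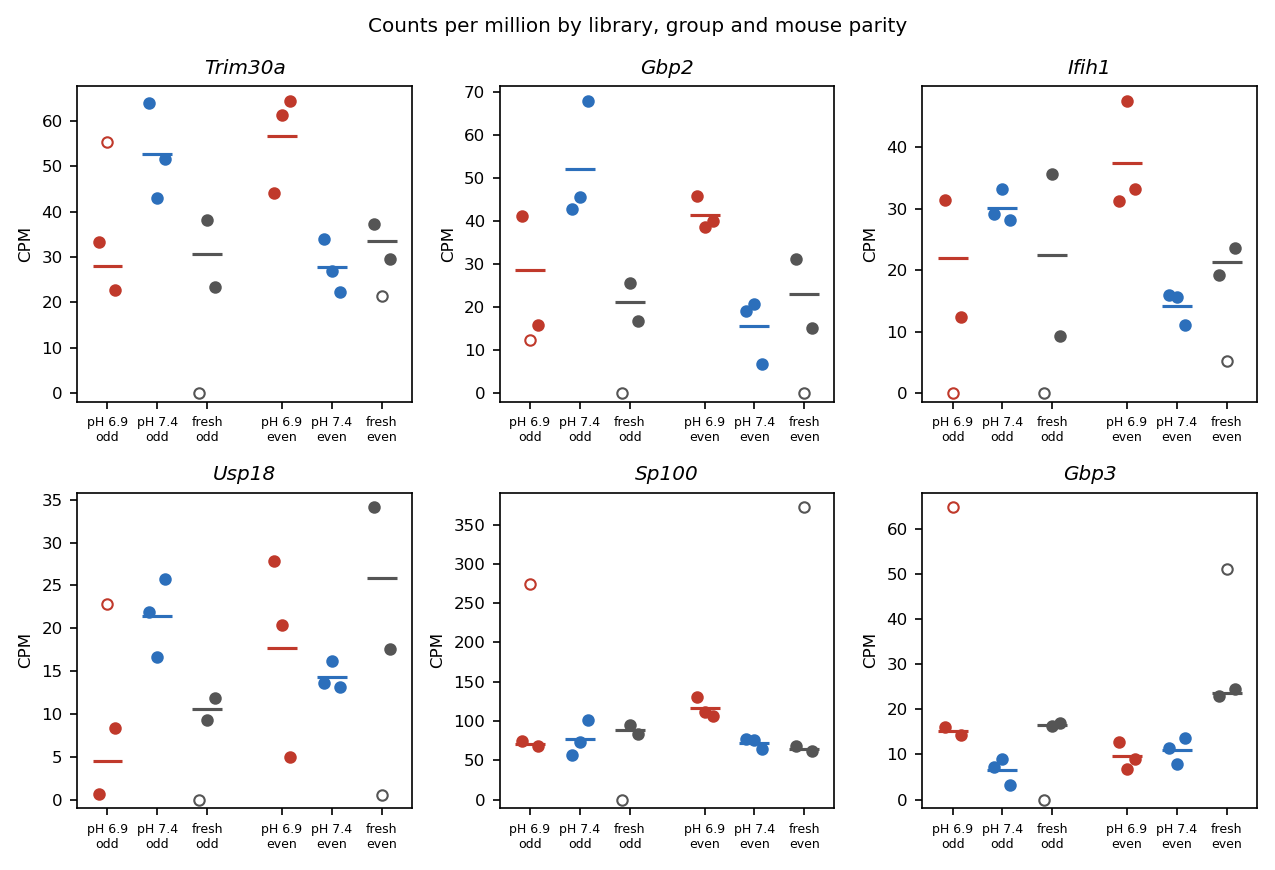
CPM of Trim30a, Gbp2, Ifih1, Usp18, Sp100 and Gbp3 in each library, by group and mouse parity, with filled points for the 15 libraries, open points for the 3 others and bars for the mean of the filled points. In Trim30a and Gbp2 the points at pH 6.9 lie below those at pH 7.4 in odd-numbered mice and above them in even-numbered mice.

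In odd-numbered mice the same group of genes held the smallest p-values among the members. Usp18, which removes ISG15 from proteins and dampens the type I receptor, had 0.617 and 8.36 CPM at pH 6.9, against 21.9, 16.7 and 25.7 at pH 7.4 and 9.31 and 11.9 in fresh cells. The value of 0.617 CPM is 1 count. Its log2 fold change was -2.01 ± 0.70 (edgeR adjusted p = 0.0723), and the adjusted p was 0.0277 by DESeq2 and ran from 0.0135 to 0.614 over the alternatives. In even-numbered mice Usp18 had 27.8, 20.4 and 5.00 CPM at pH 6.9, against 13.2 to 16.2 at pH 7.4, with overlap. Parp9, an ADP-ribosyltransferase, had 15.4 and 19.9 CPM in odd-numbered mice at pH 6.9, against 37.2, 55.0 and 34.4 at pH 7.4 (-1.24 ± 0.46, edgeR adjusted p = 0.0892). Its partner Dtx3l, a ubiquitin ligase, had 25.3 and 7.95 CPM there, against 37.7, 46.2 and 32.1 (-1.32 ± 0.55, 0.135). The genes Parp9 and Dtx3l overlap on chromosome 16, the libraries keep no strand, and 8.56% and 9.68% of their 31-base words are shared, so their counts cannot be fully told apart. Trim25, a ubiquitin ligase of the RIG-I pathway, had 36.5, 38.6 and 28.3 CPM in even-numbered mice at pH 6.9, against 17.0, 24.7 and 28.2 at pH 7.4 and 82.6 and 43.0 in fresh cells. The log2 fold of pH 7.4 over fresh cells was -1.40 ± 0.35 (edgeR adjusted p = 0.140). Parp14, another ADP-ribosyltransferase, had negative folds of pH 6.9 over pH 7.4 in both sets, -0.46 ± 0.51 and -0.21 ± 0.45.

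None of the membrane proteins passed the test in either set. For 4 of the 5 the fold of pH 6.9 over pH 7.4 was positive in odd-numbered mice, with a median of 0.83, and for 2 of the 5 in even-numbered mice, with a median of -0.24. Bst2 had 83.9 and 56.2 CPM in odd-numbered mice at pH 6.9, against 33.4, 47.2 and 36.0 at pH 7.4 (0.83 ± 0.33, edgeR adjusted p = 0.116). Ifitm3, which blocks entry of virus through endosomes, had 690 and 671 CPM there at pH 6.9, against 222, 147 and 599 at pH 7.4 (1.08 ± 0.63, 0.310). Ifitm2 had 863 and 795 CPM in odd-numbered mice at pH 6.9, against 590, 516 and 769 at pH 7.4. In even-numbered mice it had 533, 381 and 539 CPM at pH 7.4, against 898 and 757 in fresh cells, with no overlap (-0.75 ± 0.23, edgeR adjusted p = 0.204). Ifitm1, of the same family, ran from 251 to 1394 CPM in the 15 libraries with the groups overlapping. Rtp4, a receptor transport protein induced by interferon, had 24.9, 24.2 and 6.16 CPM in even-numbered mice at pH 6.9, against 5.41, 7.42 and 5.23 at pH 7.4 (1.59 ± 0.66, edgeR adjusted p = 0.168). Fresh even-numbered libraries had 26.5 and 9.74 CPM of Rtp4. Of the 31-base words of Ifitm2, 55.5% are shared with another gene, and 20.5% of those of Ifitm3, so the split of counts within this family is uncertain.

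Among the oligoadenylate synthetases and the other effectors no member passed edgeR's test in any comparison. Oasl2 had 65.0, 67.9 and 16.5 CPM in even-numbered mice at pH 6.9, against 21.4, 14.46 and 8.09 at pH 7.4, with overlap (1.77 ± 0.57, edgeR adjusted p = 0.0780). Fresh even-numbered libraries had 31.6 and 16.6 CPM of Oasl2. Oas1a, whose product activates RNase L, stayed between 30.2 and 77.1 CPM in the 15 libraries, with 0.16 ± 0.33 in odd-numbered mice and 0.16 ± 0.30 in even-numbered mice, and 68.8% of its 31-base words are shared, mostly with Oas1g. Rsad2, viperin, which makes a chain-terminating nucleotide, had 6.96, 5.09 and 7.70 CPM in even-numbered mice at pH 6.9, against 3.09, 2.28 and 2.70 at pH 7.4, with no overlap (1.30 ± 0.90, edgeR adjusted p = 0.453). Rsad2 had 7.34 and 1.57 CPM in fresh even-numbered libraries. Its neighbour Cmpk2, a mitochondrial nucleotide kinase, stayed at or under 10.5 CPM. Samhd1, which degrades deoxynucleotides, had 70.3 and 73.8 CPM in odd-numbered mice at pH 6.9, against 42.9, 46.2 and 63.4 at pH 7.4 and 38.4 and 49.7 in fresh cells (0.71 ± 0.33 over fresh cells, edgeR adjusted p = 0.362). Adar, which edits adenosine in double-stranded RNA, had 35.2 and 26.5 CPM there at pH 6.9, against 16.2, 18.2 and 9.90 at pH 7.4 (1.04 ± 0.45, edgeR adjusted p = 0.152). Ifit2, which binds viral RNA, ran from 1.58 to 48.5 CPM in the 15 libraries, with 0.26 ± 0.66 in odd-numbered mice and 0.79 ± 0.56 in even-numbered mice. Its relative Ifit1 had a median of 0.476 CPM there and was at 0 in 3 of 6 fresh libraries.

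Of the remaining members, Sp100 rose at pH 6.9 over fresh cells in even-numbered mice. Sp100 (chromosome 1, 85649988 to 85709998, plus strand), a scaffold of PML nuclear bodies, had 131, 112 and 106 CPM in even-numbered mice at pH 6.9, against 67.6 and 62.2 in fresh cells, while pH 7.4 had 76.7, 75.2 and 64.1. The mean was 116 ± 13.0 CPM (SD, n = 3) at pH 6.9 and 64.9 ± 3.86 (n = 2) in fresh cells, a log2 fold change of 0.87 ± 0.25 with an edgeR adjusted p of 0.0305. The 15 libraries leave out fresh replicate 4, with 372 CPM, and with all 18 libraries the fold was -0.50 (adjusted p = 0.721). The adjusted p was 0.0547 without a filter and 0.0602 with the mouse number as a block. It was 0.155 and 0.158 without fresh replicates 2 or 6, 0.0990, 0.0566 and 0.0696 without pH 6.9 replicates 2, 4 or 6, and 0.0577 without pH 7.4 replicate 2. Sp100 was the 1 member of 37 called there, against 10.1% of genes. An unadjusted p under 0.05 was reached by 11 members (29.7%) in that comparison, against 23.9% of genes. In odd-numbered mice 0 of 37 were called between pH 6.9 and fresh cells, against 0.49% of genes, with 2 members (5.41%) at an unadjusted p under 0.05, against 13.2% of genes. In these mice DESeq2 called 1 member (2.7%), against 2.35% of genes, and limma-voom 0, against 0.143% of genes. There Ifi35, which binds other interferon-induced proteins, had 161 and 132 CPM at pH 6.9, against 54.2 and 76.2 in fresh cells, and 78.2, 85.9 and 114 at pH 7.4. Its log2 fold change over fresh cells was 1.17 ± 0.29 (edgeR adjusted p = 0.0889, and 0.0158 by DESeq2), and it did not pass in 18 of 21 alternatives. Between pH 7.4 and fresh cells edgeR called 0 of 37 members in odd-numbered mice, against 0.107% of genes, with 3 members (8.11%) at an unadjusted p under 0.05, against 10.4% of genes. There 25 of 37 folds were positive (67.6%), against 50.7% of genes. In even-numbered mice edgeR called 0 of 37, against 0.116% of genes, with 6 (16.2%) at an unadjusted p under 0.05, against 12.2% of genes. Here the signs leaned the other way, with 12 of 37 folds positive (32.4%), against 52.6% of genes. Between pH 7.4 and fresh cells DESeq2 called 0 of 35 members in odd-numbered mice, against 1.52% of genes. In even-numbered mice it called 1 of 31 (3.23%), against 1.27% of genes. By limma-voom 0 were called in both, against 0.0178% and 0.214% of genes. Xaf1, a promoter of apoptosis, had 11.6, 13.8 and 17.9 CPM in even-numbered mice at pH 6.9, all above the 6.44, 8.37 and 10.1 at pH 7.4 (0.81 ± 0.41, edgeR adjusted p = 0.281). Lgals3bp, a secreted galectin-binding protein, had log2 fold changes of pH 6.9 over pH 7.4 of 0.004 ± 0.22 in odd-numbered mice and -0.10 ± 0.20 in even-numbered mice. Ifi27 was positive in both sets, with 0.51 ± 0.32 and 0.74 ± 0.29.

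In the libraries of low complexity, single members stood far outside the range of the other 15. Eif2ak2 had 304 CPM in pH 6.9 replicate 3 and 341 in fresh replicate 4, against at most 44.0 in the 15. Samhd1 had 196 and 219 CPM in these libraries, against at most 73.8, and Bst2 had 204 and 254, against at most 83.9. Irf1 had 0 and 0.575 CPM, against at least 34.5, and Lgals3bp 25.4 and 12.7, against at least 102. Of the 37 members, 10 were above all 15 libraries in both (27.0%, against 18% of genes) and 10 below all 15 in both (27.0%, against 32.2% of genes). The group fits over 18 libraries include these libraries.

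**Figure D5:**
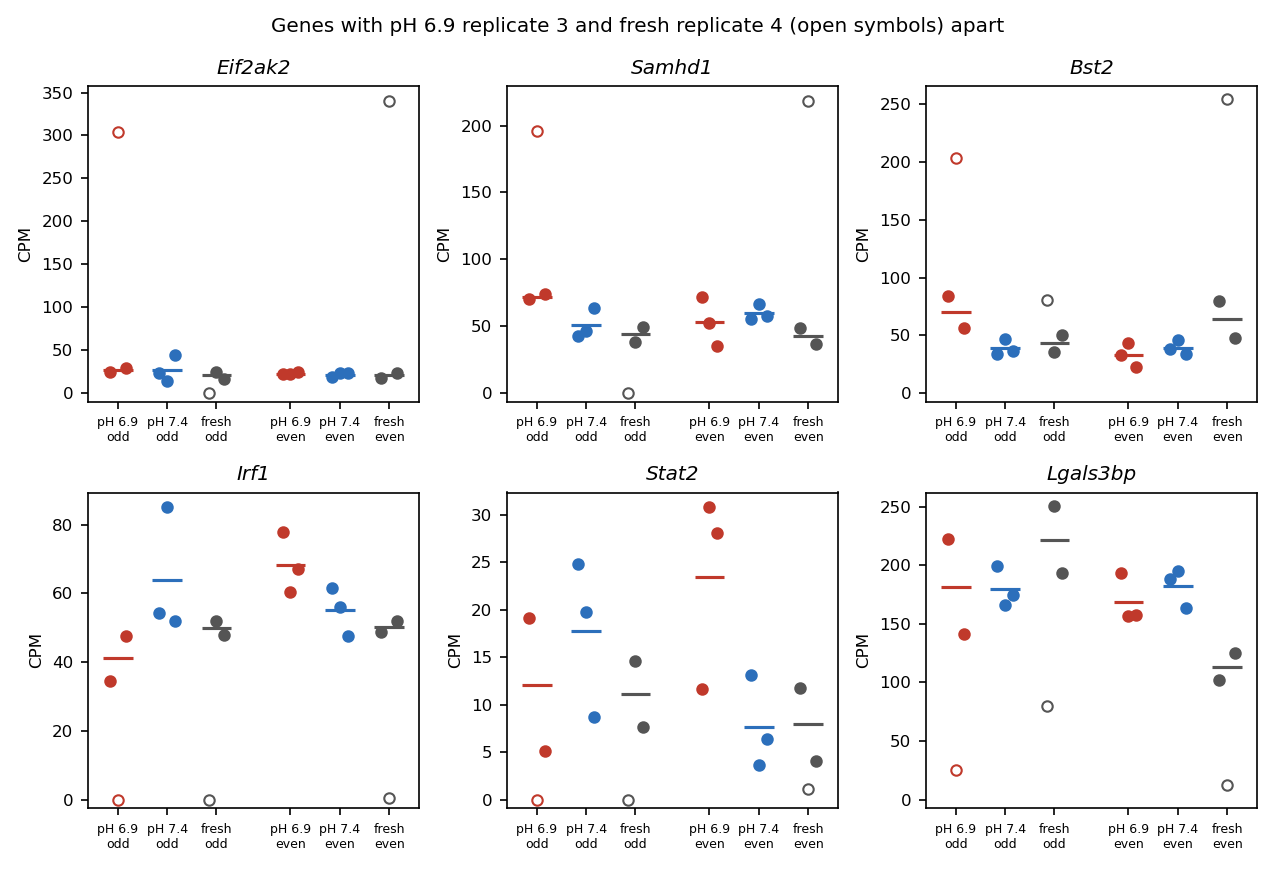
CPM of Eif2ak2, Samhd1, Bst2, Irf1, Stat2 and Lgals3bp in each library, by group and mouse parity, with open points for pH 6.9 replicate 3, fresh replicate 4 and fresh replicate 1 and bars for the mean of the filled points. Eif2ak2 reaches 304 and 341 CPM in the first 2 of these libraries and stays at or below 44.0 in the 15, while Irf1 is near 0 in them.

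For other genes of the pathway, in 5 lists, edgeR called 0 over the 18 libraries, as for all genes. Among 14 tested genes of receptors and JAK-STAT signalling, 0 rose and 4 fell in odd-numbered mice between pH 6.9 and pH 7.4, while 2 rose and 0 fell in even-numbered mice. These are 28.6% and 14.3% of the list, against 10.6% and 6.24% of all genes. Stat3, a signal carrier of cytokine receptors, had 104 and 80.2 CPM in odd-numbered mice at pH 6.9, against 243, 229 and 181 at pH 7.4. In even-numbered mice it had 149, 200 and 124 CPM, against 108, 59.8 and 93.9. Its log2 fold changes were -1.25 ± 0.29 (edgeR adjusted p = 0.0121) and 0.87 ± 0.25 (0.0480), with 2.12 ± 0.39 for the difference (0.00104). Ifnar1, a chain of the type I receptor, fell in odd-numbered mice (-1.43 ± 0.44, edgeR adjusted p = 0.0427), as did the phosphatase gene Ptpn6 (-0.76 ± 0.19, 0.0154). The kinase gene Jak2 rose in even-numbered mice (1.42 ± 0.33, edgeR adjusted p = 0.0157), and Jak1 was more positive there than in odd-numbered mice (1.57 ± 0.37, 0.00588). Of 14 sensors and adaptors, 0 were called in either set, against 10.6% and 6.24% of all genes. For the difference 1 was called (7.14% of the list, below the 17.2% of all genes). It was Ddx58, the sensor RIG-I (2.20 ± 0.72, edgeR adjusted p = 0.0403). Of 12 interferon ligand genes, 2 reached the test, and 0 were called.

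Of 17 genes of MHC class I, peptide loading and the immunoproteasome, 5 rose and 2 fell at pH 6.9 in odd-numbered mice, and 1 rose in even-numbered mice. These are 41.2% of the list in odd-numbered mice, against 10.6% of genes, and 5.88% in even-numbered mice, about the 6.24% of genes. H2-Q7 (1.53 ± 0.32), the proteasome activator Psme2 (1.0001 ± 0.21) and H2-K1 (0.84 ± 0.20) rose in odd-numbered mice, with edgeR adjusted p of 0.00615, 0.00694 and 0.0119. H2-T23, a nonclassical class I gene, rose in even-numbered mice (0.998 ± 0.20, edgeR adjusted p = 0.00637). The difference between the sets was negative for Psme2 (-1.53 ± 0.29, 0.00122) and positive for the peptide-loading genes Tapbp (1.49 ± 0.33, 0.00386) and Tap2 (2.07 ± 0.49, 0.00626). Of 54 tested of 66 further interferon-induced genes, 1 rose and 5 fell in odd-numbered mice, while 5 rose and 1 fell in even-numbered mice, and the difference was called for 9 up and 2 down. These are 11.1%, 11.1% and 20.4% of the list, against 10.6%, 6.24% and 17.2% of genes, so that the first and the last are near the share of all genes. Lgals9, galectin 9, had 1257 and 604 CPM in odd-numbered mice at pH 6.9, against 2159, 1852 and 2843 at pH 7.4. In even-numbered mice it had 2145, 1996 and 1915 CPM, against 985, 1053 and 912, with no overlap in either set. Its log2 fold changes were -1.30 ± 0.27 (edgeR adjusted p = 0.00648) and 1.05 ± 0.23 (0.0128), and 2.35 ± 0.36 for the difference (0.000244). Slfn2, a schlafen gene of quiescent immune cells, rose in odd-numbered mice (2.81 ± 0.48, edgeR adjusted p = 0.00225), where Tor3a fell (-1.11 ± 0.28, 0.0173). Ly6a, which encodes the stem-cell marker Sca-1 and is also among the LT-HSC markers, had 787, 1065 and 918 CPM in even-numbered mice at pH 6.9, against 170, 336 and 110 at pH 7.4 (2.18 ± 0.38, edgeR adjusted p = 0.00578). Trim34a rose there as well (1.57 ± 0.32, edgeR adjusted p = 0.00654). For the difference between the sets, Herc6, a ligase of ISG15, was positive (2.08 ± 0.48, edgeR adjusted p = 0.00546) and Slfn2 negative (-2.52 ± 0.64, 0.0116).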

How the data were processed

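RNA was amplified with SMART-Seq v4 and made into Nextera XT libraries, which keep no strand, and sequenced as paired ends of 75 bp, per the labels' protocols. Reads were quantified with kallisto against mm10, per the submitters' processing notes, which give no version. Per gene symbol, the authors deposited estimated counts, and every value is a whole number. The summing of transcripts to genes is not described in these notes. Totals ran from 6311 to 7508120 counts per library. No molecular identifiers were used, so counting error is not the whole error.

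Counts were used as deposited, kept where filterByExpr kept them, and normalized by TMM. Tests were the robust quasi-likelihood tests of edgeR 4.0.16 (R 4.3.3). One fit had 3 groups over 18 libraries (10104 genes). The other had 6 sets of group and mouse parity over the 15 libraries with at least 1e+05 counts and 10000 genes detected (11226 genes). P values were adjusted over all genes by Benjamini-Hochberg, with a threshold of 0.05. SE is the log2 fold change over the root of its F statistic, and CPM uses the TMM-scaled totals of the 18 libraries. The design text names individual mice, so same-numbered libraries may be pairs. The main fits had no term for the mouse and treated libraries as independent, and only the mouse block among the alternatives used it. Deviations of same-numbered libraries correlated at -0.083 to 0.138 over 12 pairs, against -0.131 to 0.117 over 25 others. Alternatives were DESeq2 size factors, no filter, DESeq2 1.42.0, limma-voom 3.58.1, the mouse block, other library sets and leaving out each replicate. The fits were also run on simulated counts in which 200 genes were changed. Every gene had the same spread setting there, and apart from the changed genes all libraries shared the same profile. The simulation therefore does not show how the fits perform on libraries that differ as these do.

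The members, gene lists and sets of mice were chosen with earlier results of these data known. Values are given for called members, or for the 2 of smallest p in a comparison, and for others by role. A name's further values were chosen after they were seen. Shared sequence was counted as 31-base words in GENCODE M21 transcripts, which also gave the coordinates (GRCm38).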

Additional observations from a re-analysis of the deposited data

Results flagged for a closer look

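Within groups of 6 libraries, 22 values of members stood apart from the rest of their group by Dixon's test at 95%, among 111 groups of gene and condition examined. For normally distributed values chance alone gives such a value in about 1 in 20 groups. CPM need not be so distributed, so the number of flags cannot be read against that rate.

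In pH 6.9 replicate 3, 8 members stood apart. Eif2ak2 was at 304 CPM, Sp100 at 275, Bst2 at 204, Samhd1 at 196, Gbp3 at 64.9, Rtp4 at 60.5, Xaf1 at 33.3 and Trim25, the low one, at 1.75 CPM. In fresh replicate 4, 5 stood apart, all high, with Sp100 at 372 CPM, Eif2ak2 at 341, Bst2 at 254, Samhd1 at 219 and Ifi44 at 74.2. These libraries had 8925 and 9408 genes detected. In fresh replicate 1, with 6311 counts, Irgm1 was at 0.

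Single members stood apart in libraries of usual depth. In pH 7.4 replicate 3 these were Irf1 at 85.1 CPM, Rtp4 at 31.9 and Dhx58 at 15.3. In pH 7.4 replicate 5 they were Eif2ak2 at 44.0 CPM and Rsad2 at 16.6, and in pH 7.4 replicate 2 Ifit1 at 2.58. In fresh replicate 2 they were Rtp4 at 26.5 CPM and Ifit1 at 14.0.

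The effect of pH differed between even-numbered and odd-numbered mice for 3 members by edgeR's test of the difference. The log2 difference was 2.35 for Gbp2, 1.99 for Trim30a and 1.93 for Ifih1. The first index differs along with pH within each set, and the part of the index was not tested.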

How the results depend on the processing

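Counts of members called stayed at 0 over 18 libraries under every alternative run. Within odd-numbered mice, 0 members called between pH 6.9 and pH 7.4 became 5 without a filter, 1 by DESeq2 and 1 by limma-voom, and ran from 0 to 1 when a replicate was left out. In even-numbered mice, 1 became 5 without a filter, 5 by DESeq2, 7 by limma-voom, 3 with the mouse number as a replicate block and 0 with all 18 libraries, and ran from 0 to 4 when a replicate was left out. For the difference, 3 became 9 without a filter, 8 by limma-voom and 0 with all 18 libraries, and ran from 2 to 6. The 8 by limma-voom are 21.6% of members, about the 21.4% of all genes. For pH 7.4 over fresh cells in even-numbered mice, 0 became 3 without a filter and 1 by DESeq2 (3.23%, against 1.27% of genes). For pH 6.9 over fresh cells, 0 became 2 and 1 in odd-numbered mice (0 to 1 when a replicate was left out), and 1 became 3 and 3 in even-numbered mice, 0 with the replicate block and 0 with all 18 libraries (0 to 2). For pH 6.9 over fresh cells DESeq2 thus called 2.7% of members in odd-numbered mice, against 2.35% of genes. In even-numbered mice it called 8.11% of members, against 14.1% of genes. For the difference and the comparisons with fresh cells, shares of all genes called without a filter are not given. Those counts without a filter are therefore not read as results about the members. Directions reversed for Ifi44 at pH 6.9 over fresh cells (0.31 by limma-voom, 0.34 over 15 libraries by group, 0.13 without fresh replicate 4, in a range of -2.36 to 0.13 when a replicate was left out) and for Sp100 in even-numbered mice (-0.50 with all 18 libraries). Of 21 fold changes given by rule, 401 repeats kept direction and side of the threshold, 33 lost a call, 20 gained one and 4 reversed. The causes were not tested. Calls within a set rest on 2 or 3 libraries a group, and with 1 of 2 left out the spread of the single remaining library is borrowed from the other sets. Counts of all genes called moved too. Between pH 6.9 and pH 7.4 over 15 libraries they were 1187 in odd-numbered mice, with 1620 without a filter, 1668 by DESeq2 and 785 with the block, and 58 over all 18 libraries. In even-numbered mice they were 700, 1042, 1068 and 636, with 1670 by limma-voom and 0 over all 18 libraries.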

Other observations

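Of the 5 members below the count minimum, Oas2 and Oasl1 passed the filter of the 15-library fit and were not called. Oas2 reached 4.49 CPM in pH 6.9 replicate 4 and 3.96 in pH 7.4 replicate 5, and Oasl1 reached 6.88 in pH 6.9 replicate 4 and 3.78 in pH 7.4 replicate 3. Zbp1, a sensor of Z-form nucleic acid, reached 3.48 CPM in pH 6.9 replicate 2, Ifit3 2.38 in pH 7.4 replicate 5 and Mx1, a GTPase against influenza virus, 1.86 in fresh replicate 3.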
